A study of Mus musculus with 4 samples.

Results

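The TNF superfamily is represented here by 9 genes, 5 ligands and 4 receptors, of 36082 gene names measured on the arrays. The ligands are Tnf, Lta, Ltb, Tnfsf9 and Tnfsf15, and the receptors are Tnfrsf1a, Tnfrsf1b, Tnfrsf9 and Fas. They were chosen by name: each array probe whose gene name is one of the 9 was taken, which gave 11 of 55681 probes, with a pair of probes each for Tnfrsf1a and Tnfrsf9 and 1 probe for each other gene. All 9 genes passed the filter on dim signal, which asked for a signal well above background on at least 2 arrays.

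The arrays measured total RNA of RAW264.7, an established mouse macrophage-like cell line. All 4 cultures had been stably transfected with the same kind of microRNA-type knockdown vector, which also encodes EmGFP, and selected with blasticidin as bulk cultures. A pair of cultures carried the scramble control sequence and a pair the sequence against Linc-AAM, a long intergenic noncoding RNA linked to activated macrophages. Of each pair, 1 culture received DMEM medium for 4 h and 1 received 50 µg/mL AEPS, a polysaccharide from Actinidia eriantha roots, for 4 h. Each of the 4 groups is 1 culture on 1 array, so no group has replicates. The knockdown itself was not checked here, because no probe is named for Linc-AAM.

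The TNF superfamily is a family of cytokines that mostly act as trimers on the cell surface or after release by proteolysis, and its receptors carry signals to NF-κB, to MAP kinases and, for those with a death domain, to cell death. TNF is the leading early inflammatory cytokine of macrophages, whose transcription is switched on within minutes to hours of sensing microbial products. Tnf lies between Ltb and Lta in the major histocompatibility complex, and the products of these neighbours, lymphotoxins alpha and beta, are better known from lymphocytes. TNF binds the broadly expressed receptor encoded by Tnfrsf1a, which has a death domain, and the inducible receptor encoded by Tnfrsf1b, which has none.

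The question is how AEPS shifts these ligands and receptors, and whether cultures with the Linc-AAM vector differ from scramble ones. The levels are log2 signals relative to the 75th percentile of the same array, so a level of 0 is that percentile, and levels of different probes are not comparable.

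The labels of the lines disagree between the deposited sources, and this bears on every line comparison. The series value table ranks probes, in its column for each line, like the scanner file of the other line with the same treatment (Spearman rho above 0.9999 across probes, against at most 0.969 for the array of its own name). Which source is right cannot be told apart here. The arrays are called by their scanner-file labels, the array labelled scramble and the array labelled knockdown. The line differences of the 9 genes in DMEM and under AEPS have the opposite sign under the labels of the value table. The exception is that of Tnfrsf1a in DMEM, which was near 0 in both (-0.06 and -0.02). The line effect of Tnf over both media was also near 0 with the same sign in both (-0.01 and -0.06). The AEPS effect over both lines has the same size under either labelling.

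Across the arrays, 53.4% to 58.0% of spots were well above background and none was saturated. Of 10 macrophage markers 9 were well above background on all 4 arrays, with Mertk on none. The log2 of their summed signals, called the summed log2 level below, was 9.48 to 9.67. The brightest probes weigh most in such a sum. Markers of other cells were mostly dim. Of 5 T cell markers, Cd3e and Cd4 were well above background on all 4 arrays and Cd3g and Cd8a on none (summed log2 level 2.69 to 2.83). The summed log2 level was at most -2.02 for 5 B cell markers, with Cd79a well above background on all 4 arrays (-2.97 to -2.43) and Cd79b, Ms4a1 and Pax5 among those on none. Of 4 fibroblast markers, Col1a2 was well above background on all 4 arrays, Col1a1 on 3, Dcn on 2 and Pdgfra on none. Their summed log2 level was -2.72 in DMEM and -1.67 under AEPS on the arrays labelled scramble, and -3.10 and -2.04 on those labelled knockdown, so it was higher under AEPS on both lines, as the risen genes below were, and its part in those results was not tested. The summed log2 level was at most -4.49 for 4 natural killer cell markers, all on none. For 4 epithelial markers it was at most -3.95, with Epcam, Cdh1 and Krt8 on none.

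RefSeq promoters (assembly GRCm38.p6) were found for 8 of the 9 genes and none was matched for Tnfsf9. Tnfrsf9 has a pair of start sites, which makes 9 promoters. Below are the 250 bases upstream of the start for Tnf, for its neighbour Ltb, for the downstream start of Tnfrsf9 and for Fas, 5′ to 3′ on the gene's strand. They are shown because Tnf, Ltb and Fas rose under AEPS, Tnfrsf9 depended on the probe, and each holds a match. Capitals mark matches, on either strand, to 3 letter patterns: GGNNTTTCC (a NF-κB-like site), TGANTCA (an AP-1-like site) and TATAAA, a pattern of many core promoters. The patterns were settled after these promoters had been read.
Tnf, chr17:35202008-35202257, minus strand: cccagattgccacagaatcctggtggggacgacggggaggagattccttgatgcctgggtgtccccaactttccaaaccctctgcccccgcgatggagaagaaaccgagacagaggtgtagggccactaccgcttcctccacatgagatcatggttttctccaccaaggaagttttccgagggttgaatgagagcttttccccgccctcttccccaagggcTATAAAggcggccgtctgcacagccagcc
Ltb, chr17:35194257-35194506, plus strand: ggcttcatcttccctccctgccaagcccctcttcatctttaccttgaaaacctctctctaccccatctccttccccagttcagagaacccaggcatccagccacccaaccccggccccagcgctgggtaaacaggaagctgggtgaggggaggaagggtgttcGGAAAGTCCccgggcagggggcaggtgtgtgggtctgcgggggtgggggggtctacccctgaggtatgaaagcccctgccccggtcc
Tnfrsf9, chr4:150927749-150927998, plus strand: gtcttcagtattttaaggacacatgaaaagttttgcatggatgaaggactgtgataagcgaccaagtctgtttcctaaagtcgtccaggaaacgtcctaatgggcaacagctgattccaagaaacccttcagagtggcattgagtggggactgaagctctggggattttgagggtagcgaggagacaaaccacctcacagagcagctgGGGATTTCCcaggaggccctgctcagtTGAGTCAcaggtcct
Fas, chr19:34290409-34290658, plus strand: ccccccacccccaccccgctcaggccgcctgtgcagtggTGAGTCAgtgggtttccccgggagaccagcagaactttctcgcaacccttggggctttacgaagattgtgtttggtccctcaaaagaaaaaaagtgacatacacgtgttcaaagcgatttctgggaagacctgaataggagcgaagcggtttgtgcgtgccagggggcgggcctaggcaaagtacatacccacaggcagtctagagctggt

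The strings differ in what they hold. GGNNTTTCC occurs in 4.93% of 32851 promoters of this length, and among the 9 promoters it was found in Ltb, on the minus strand at -87 to -79, and at the downstream start of Tnfrsf9, at -42 to -34. TGANTCA occurs in 6.75% of promoters and was found in Fas at -211 to -205 and at the same Tnfrsf9 start at -15 to -9. TATAAA occurs in 12.4% and was found in Tnf at -29 to -24 and in Lta at -167 to -162. Positions count back from the start site, and none of the matched stretches overlap. The upstream Tnfrsf9 start and the promoters of Tnfrsf1a, Tnfrsf1b and Tnfsf15 held none of the 3 patterns in this window.

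After 4 h of AEPS, all 5 ligands and the receptors Tnfrsf1b and Fas rose, while the receptor Tnfrsf1a and the brighter Tnfrsf9 probe did not pass the test. That is 7 of 9 genes higher and 0 lower (limma over both lines, adjusted p under 0.05), where 7.4% of the 22338 genes tested were called higher and 7.29% lower. The median effect of the 9 genes was 2.74 log2 units against 0.07 over all genes tested. The 9 genes were chosen with earlier results of these data known. The counts and the median therefore describe these genes and not the superfamily at large. An effect over both lines is the mean of the AEPS minus DMEM difference on each line, and its spread comes from 1 residual degree of freedom shared with a prior across genes. That degree of freedom is the gap in AEPS difference between the lines. With 1 culture per group, the p-values measure no spread between like cultures. Nothing in the labels says that the cultures were independent experiments. A lower RNA level per cell and fewer cells of a type cannot be told apart in bulk RNA.

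**Figure D1:**
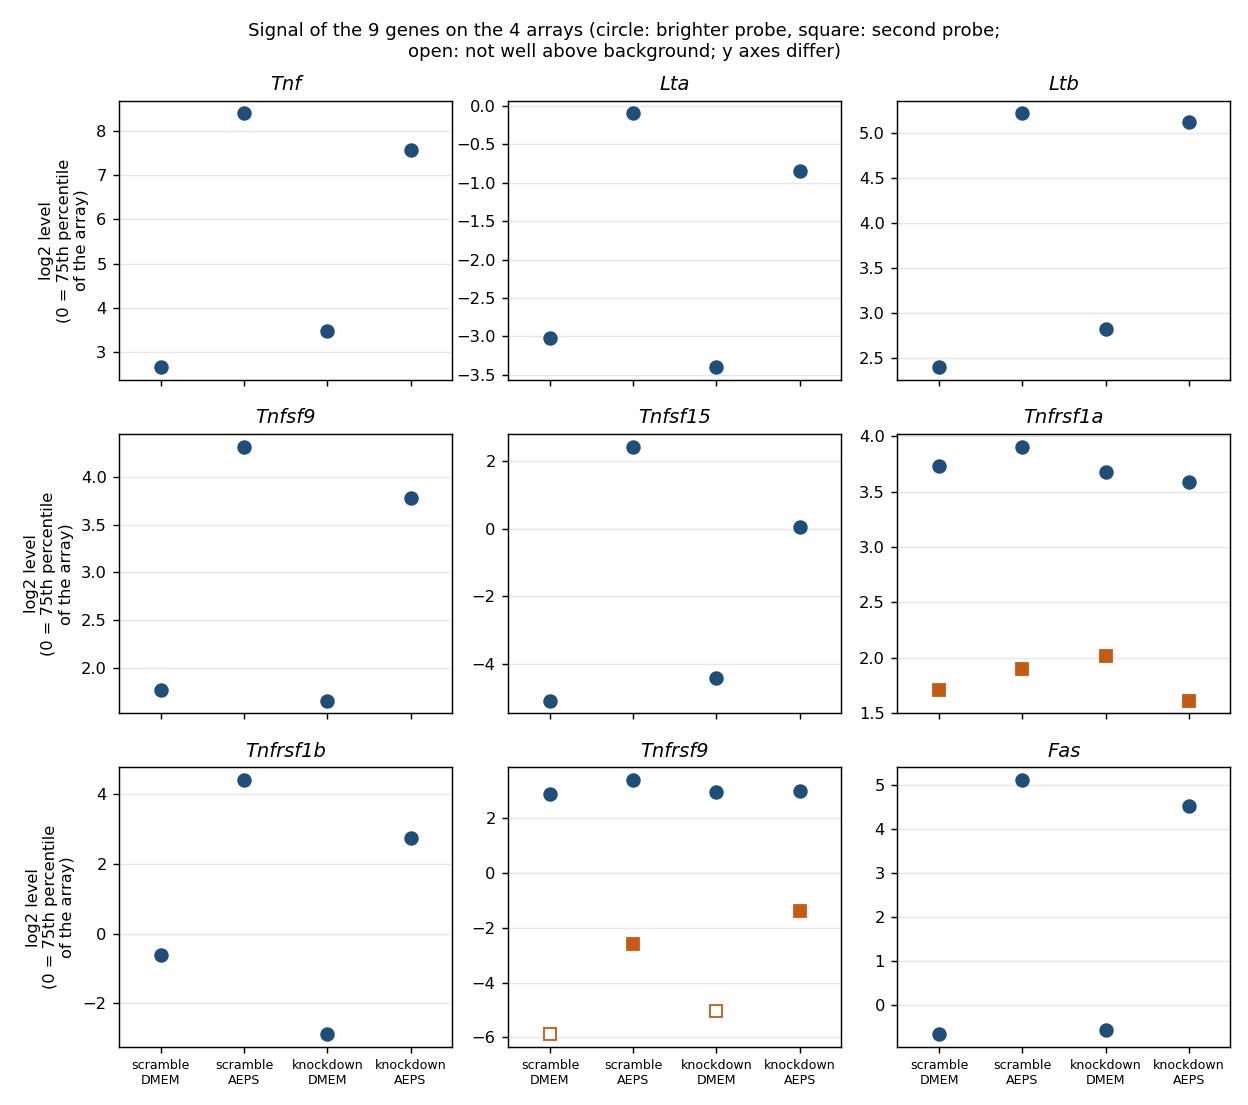
Log2 level (y axis, relative to the array's 75th percentile) of each of the 9 genes on the 4 arrays (x axis), 1 point per array and probe. For the 5 ligands, Tnfrsf1b and Fas both AEPS arrays lie above both DMEM arrays; the second Tnfrsf9 probe (squares) is not well above background in DMEM and lies at -2.59 and -1.38 under AEPS.

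Among the ligands, Tnf (probe at mm9 chr17:35336795-35336854) was the largest rise after Tnfsf15. Its log2 level was 2.65 in DMEM and 8.40 under AEPS on the arrays labelled scramble, and 3.47 and 7.56 on those labelled knockdown. Both AEPS arrays lay far above both DMEM arrays, and the 9 or 10 spots of the probe varied by an SD of only 0.017 to 0.024 within an array. The difference was 5.75 (53.8-fold) on the arrays labelled scramble and 4.09 (17.1-fold) on those labelled knockdown, and the effect over both was 4.92 ± 0.44 (SE; limma adjusted p = 0.0143), 75th of the 22338 genes by size upward. In the additive model the SE grows with the gap between the differences of the lines.

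Lta (chr17:35340275-35340334), which encodes lymphotoxin alpha, and Ltb (chr17:35333097-35333156), which encodes the membrane partner that anchors it, rose as well. Lta went from -3.02 to -0.10 on the arrays labelled scramble and from -3.41 to -0.85 on those labelled knockdown, with spot SDs of 0.052 to 0.192 in a dim range. The effect of Lta over both lines was 2.74 ± 0.15 (SE; limma adjusted p = 0.00769), or 7.57-fold and 5.89-fold on the single lines. Ltb went from 2.39 to 5.22 and from 2.82 to 5.12 in the same order, with an effect of 2.56 ± 0.18 (SE; limma adjusted p = 0.0100), or 7.07-fold and 4.92-fold. For each gene the 4 levels fall into a lower DMEM pair and a higher AEPS pair.

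Tnfsf9 (chr17:57247062-57247121), the ligand of the receptor encoded by Tnfrsf9 and a costimulator of T cells, rose on both lines. Its level was 1.78 in DMEM and 4.31 under AEPS on the arrays labelled scramble, and 1.66 and 3.78 on those labelled knockdown. The effect was 2.33 ± 0.16 (SE; limma adjusted p = 0.00971), or 5.79-fold and 4.34-fold. Its probe has 1 spot per array, as do those of Ltb, Tnfsf15, Tnfrsf1b and Tnfrsf9.

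Tnfsf15 (chr4:63388134-63388193), which encodes the ligand TL1A, gave the largest effect of the 9. Its level was -5.09 in DMEM and 2.43 under AEPS on the arrays labelled scramble, and -4.42 and 0.07 on those labelled knockdown. The difference was 7.53 (184-fold, 6th of 21490 genes) on the arrays labelled scramble and 4.49 (22.5-fold, 31st of 20589) on those labelled knockdown. The effect over both lines was 6.01 ± 0.78 (SE; limma adjusted p = 0.0255). The DMEM levels lie close to the lowest signal called well above background on their arrays, -5.37 and -4.71, so these folds depend on the background correction: with normexp correction the effect was 3.99.

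Of the receptors, Tnfrsf1a (chr6:125312376-125312435) showed no called change. The level of its main probe, with 9 or 10 spots, was 3.74 in DMEM and 3.91 under AEPS on the arrays labelled scramble, and 3.68 and 3.59 on those labelled knockdown. The effect was 0.04 ± 0.13 (SE; limma adjusted p = 0.844), and it turned to -0.08 at the lowest under another processing, still not called. The second probe (chr6:125311922-125311981) gave 1.71, 1.90, 2.02 and 1.61 on the same arrays in order, with differences of 0.19 and -0.41.

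Tnfrsf1b (chr4:144802359-144802418), the receptor inducible in macrophages, rose, with the largest AEPS difference among the receptors on the arrays labelled knockdown. Its level was -0.62 in DMEM and 4.41 under AEPS on the arrays labelled scramble, and -2.89 and 2.75 on those labelled knockdown. The difference was 5.04 (32.8-fold) and 5.64 (49.8-fold), and the effect over both lines was 5.34 ± 0.19 (SE; limma adjusted p = 0.00697). So the receptor without a death domain rose at 4 h while Tnfrsf1a did not pass the test.

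Fas (chr19:34402164-34402223), the death receptor for FasL, rose to a like extent. Its level was -0.67 in DMEM and 5.10 under AEPS on the arrays labelled scramble, and -0.57 and 4.52 on those labelled knockdown, with spot SDs of 0.015 to 0.039 over 2 spots. The difference was 5.77 (54.5-fold) and 5.09 (34.1-fold), and the effect was 5.43 ± 0.21 (SE; limma adjusted p = 0.00710), 46th by size upward. The gene of its ligand, Fasl, was not well above background on any array.

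**Figure D2:**
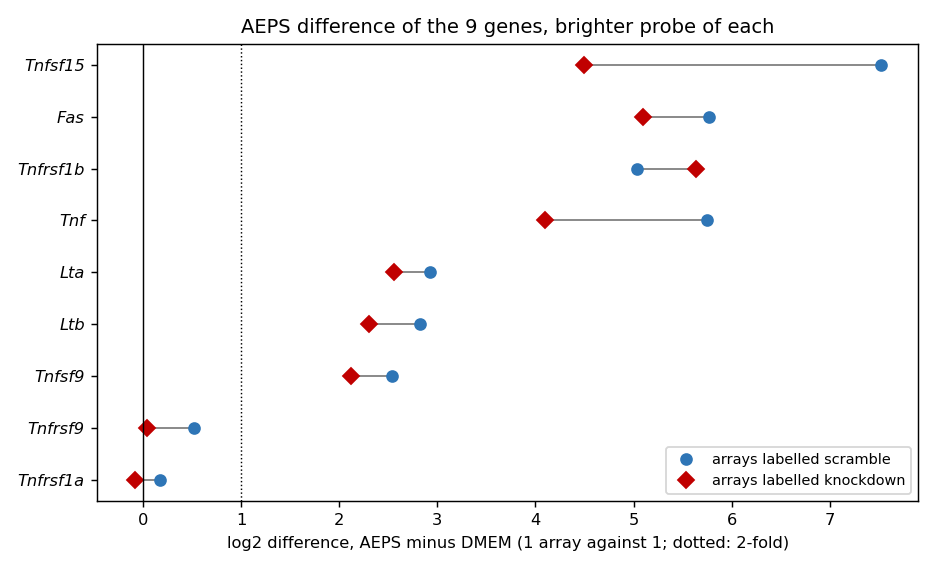
AEPS minus DMEM difference (x axis, log2) of the brighter probe of each gene, on the arrays labelled scramble (circles) and those labelled knockdown (diamonds), 1 array against 1. The 5 ligands, Tnfrsf1b and Fas lie beyond the 2-fold line on both; Tnfrsf1b is the 1 gene whose diamond lies right of its circle.

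Tnfrsf9 (4-1BB, the receptor of the Tnfsf9 product) depended on the probe. The brighter probe (chr4:150319582-150319641) read 2.88 and 3.39 on the arrays labelled scramble, and 2.98 and 3.01 on those labelled knockdown, with an effect of 0.28 ± 0.17 (SE; limma adjusted p = 0.317). The dimmer probe (chr4:150319101-150319160) read -5.88 and -2.59, and -5.05 and -1.38. It was not well above background in DMEM on either line, and under AEPS it was at least 6.86-fold higher on the arrays labelled scramble and at least 10.1-fold higher on those labelled knockdown. These bounds set the AEPS level against the lowest signal called well above background on the DMEM array. The last 30 bases of the probes are shown because the brighter one ends in a run of 11 GT units, in capitals:
Tnfrsf9 brighter probe: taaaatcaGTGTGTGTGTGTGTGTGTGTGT
Tnfrsf9 dimmer probe: taacatatttgtctttaccttttttaaatc

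A run of at least 8 units of a dinucleotide was present in 132 of 55681 probes and in 1 of the 11 probes of these genes. The dimmer probe passes the filter on dim signal through its AEPS arrays alone, so it supports the bounds above and no exact effect. The part of the repeat in the difference between the probes was not tested.

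On the single lines, 7 of the 9 genes were at least 2-fold higher under AEPS in the pair labelled scramble and 7 in the pair labelled knockdown, and 0 were lower in either. Over all genes, 6.69% of 23515 were higher and 5.22% lower on the arrays labelled scramble, and 4.64% of 22323 higher and 3.49% lower on those labelled knockdown. The 7 genes were the same on both lines, all with both arrays well above background.

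The response to AEPS (AEPS minus DMEM) was lower on the arrays labelled knockdown for 8 of the 9 genes by their brighter probes. The exception was Tnfrsf1b. The 8 include Tnfrsf1a and the brighter Tnfrsf9 probe, whose effects over both lines (0.04 and 0.28) were not called. The dimmer Tnfrsf9 probe had the larger bound on the arrays labelled knockdown (10.1-fold against 6.86-fold). Both are lower bounds, set against different floors, so they do not tell on which line this probe rose more. No test of this difference is possible, as an interaction term leaves no residual degree of freedom. A smaller rise there was the usual pattern on these arrays: of 893 genes well above background on all arrays whose mean effect was at least 1 log2 unit upward, 734 (82.2%) responded less on the arrays labelled knockdown, with a median difference in response of -0.44. The direction is that of the scanner-file labels.

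For Tnfsf15 the difference in response was -3.03 log2 units, the 3rd lowest of 20335 genes. For Tnf it was -1.66, 73rd lowest. These were the 2 of 9 genes beyond 1 log2 unit, both lower, where 1.62% of genes were lower and 0.526% higher by that size. The others were Fas at -0.68, Ltb at -0.53, the brighter Tnfrsf9 probe at -0.48, Tnfsf9 at -0.42, Lta at -0.36 and Tnfrsf1a at -0.26. Tnfrsf1b stood at 0.60, but at -0.24 with normexp background correction.

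In DMEM, 1 of the 9 genes differed by at least 2-fold between the lines. Tnfrsf1b was 4.79-fold lower on the array labelled knockdown (-2.26 log2), the 23rd lowest of 20891 genes, where 1.51% of 23056 genes were lower and 2.36% higher. Tnf went the other way, at 0.82 log2 (1.77-fold) higher, and Tnfsf15 was 0.67 higher near the floor of detection. Ltb was 0.43 higher and Lta 0.39 lower (-0.39), and the other 4 genes lay between -0.12 and 0.10.

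Under AEPS, 2 of the 9 genes were at least 2-fold lower on the array labelled knockdown and 0 higher, where 2.69% of 22785 genes were lower and 1.85% higher. Tnfsf15 was 5.15-fold lower (-2.37 log2) and Tnfrsf1b 3.16-fold lower (-1.66 log2, 192nd lowest of 21185). Tnf was 1.78-fold lower (-0.84), Lta -0.75, Fas -0.58, Tnfsf9 -0.53, the brighter Tnfrsf9 probe -0.38, Tnfrsf1a -0.32 and Ltb -0.09. All 9 values were below 0, with a median of -0.58 against -0.0009 over all genes. Most genes raised by AEPS (82.2% of 893) also responded less on the arrays labelled knockdown, so the shared sign is not read as particular to these genes. The share of such genes below 0 under AEPS was not counted. The dimmer Tnfrsf9 probe went the other way, at 1.22 log2 (2.32-fold) higher on the array labelled knockdown.

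**Figure D3:**
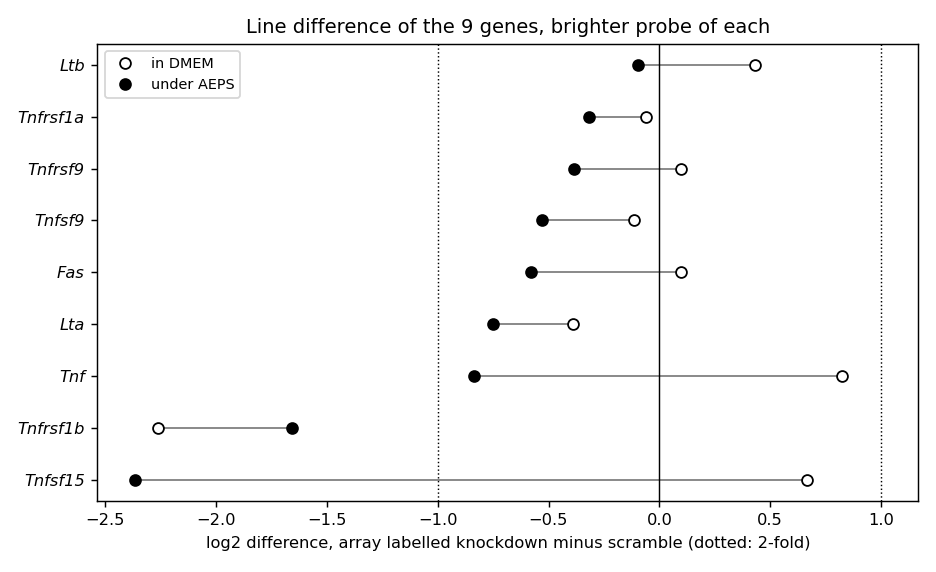
Array labelled knockdown minus array labelled scramble (x axis, log2) for the brighter probe of each gene, in DMEM (open) and under AEPS (filled), 1 array against 1. Tnfrsf1b lies beyond 2-fold in both media and Tnfsf15 under AEPS; the signs turn with the labels of the value table, except for Tnfrsf1a in DMEM.

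Tnfrsf1b was thus the 1 gene of the 9 that differed beyond 2-fold in the same direction in both media. Its line effect over both media was -1.96 ± 0.19 (SE), with an unadjusted p = 0.000642 in limma and an adjusted p = 0.0667, which misses the threshold. None of the 9 genes passed for the line effect, where limma called 0.398% of genes higher and 0.34% lower, and 2 of 9 (Lta and Tnfrsf1b) had an unadjusted p under 0.05, as did 3251 of 22338 genes. The call of Tnfrsf1b appeared under 4 other processings, with adjusted limma p-values of 0.00159 (normexp correction), 0.000371 (median scaling), 0.0220 (genes well above background on all arrays) and 0.000252 (intensity trend). It was absent under the others. Their adjusted limma p-values were 0.0921 (quantile), 0.0623 (probe averaging), 0.0923 (value table, either labelling), 0.0678 (repeat-holding probes left out) and 0.276 (no filter). The gene rests on 1 probe with 1 spot per array. Tnf, with line differences of opposite sign in the media, had a line effect of -0.01 (limma adjusted p = 0.996).

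Of 13 other ligands of the superfamily 12 were on the array and 5 passed the filter. Of these 5 only Tnfsf8 (CD30 ligand) was called higher, by 0.87 ± 0.12 (SE; limma adjusted p = 0.0264), and none was called lower. Their median was 0.32 against 0.07 over all genes. Tnfsf8 also stood 1.65 log2 higher in DMEM and 1.55 higher under AEPS on the arrays labelled knockdown. Tnfsf14 (LIGHT) stood at -1.06 log2 under AEPS on the array labelled knockdown relative to the one labelled scramble. Tnfsf12 and Tnfsf13b (BAFF) gave 0.08 and 0.32, neither called. Cd70 and Tnfsf10 were well above background on 1 array alone, the AEPS array labelled scramble, and were not tested. Cd70 was at least 1.58 log2 higher there than in DMEM. Cd40lg, Fasl, Tnfsf4, Tnfsf11 and Tnfsf18 were not well above background on any array.

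Of 24 other receptors 17 passed the filter, of which 3 rose and 3 fell, with a median of -0.22. Cd40, the receptor through which T cells activate antigen-presenting cells, rose by 6.14 ± 0.50 (SE; limma adjusted p = 0.0127), from -2.49 to 4.59 and from -1.71 to 3.48. Tnfrsf4 (OX40) rose by 1.24 (limma adjusted p = 0.0317). Tnfrsf26 changed by -1.42 (limma adjusted p = 0.0236) and Tnfrsf11a (RANK, the osteoclast receptor) by -1.13 (limma adjusted p = 0.0228). Under AEPS the arrays labelled knockdown had Cd40 at -1.11 and Tnfrsf4 at 1.02 relative to those labelled scramble.

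Downstream of the receptors, 4 of 21 genes of the proximal signalling complex rose and 1 fell, with a median of 0.26. Traf1, an adaptor of the receptors, rose by 3.64 (limma adjusted p = 0.00955), Traf5 by 2.09, the ubiquitin ligase gene Birc3 by 1.61 and Tab2 by 1.06. Ripk1, the death-domain kinase, changed by -0.61 (limma adjusted p = 0.0483). The genes Tradd, Traf2, Chuk and Ikbkb, of the same complexes, gave values between -0.32 and 0.42 and were not called.

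Genes that restrain TNF signalling rose most often among the 6 lists: 8 of 15 rose, 0 fell, with a median of 0.91. Over all genes tested, 7.4% were called higher and 7.29% lower. The lists were chosen with earlier results of these data known, so this order describes the listed genes only. Tnfaip3 (A20, a ubiquitin-editing enzyme) rose by 4.58 ± 0.20 (SE; limma adjusted p = 0.00710), Zc3h12a (an RNase acting on cytokine mRNAs) by 3.75 and the inhibitor genes Nfkbie and Nfkbia by 2.98 and 2.64. Zfp36 (tristetraprolin, which destabilises Tnf mRNA), Tnip1, Nfkbib and Tnip3 were the others that rose, with values of 2.58, 1.85, 1.84 and 0.91. Under AEPS Tnfaip3 stood at -1.01 on the array labelled knockdown relative to the one labelled scramble.

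In the death arm, 2 of 11 genes rose and 2 fell, with a median of -0.01. Zbp1, a nucleic acid sensor that can trigger necroptosis, rose by 3.96 (limma adjusted p = 0.0196), and Cflar, an inhibitor of death receptor signalling, by 2.29 (limma adjusted p = 0.0203). Zbp1 stood at -1.01 log2 in DMEM and -2.64 under AEPS on the arrays labelled knockdown relative to those labelled scramble.

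Of 10 genes for the shedding and trafficking of TNF 9 passed the filter; 2 rose and 1 fell. Rhbdf2 (iRhom2, which brings ADAM17 to the surface) rose by 2.27 (limma adjusted p = 0.0159) and Litaf by 1.45, and Frmd8, an iRhom partner, changed by -0.98. The sheddase gene Adam17 gave 0.57 and missed the threshold (limma adjusted p = 0.0532).

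**Figure D4:**
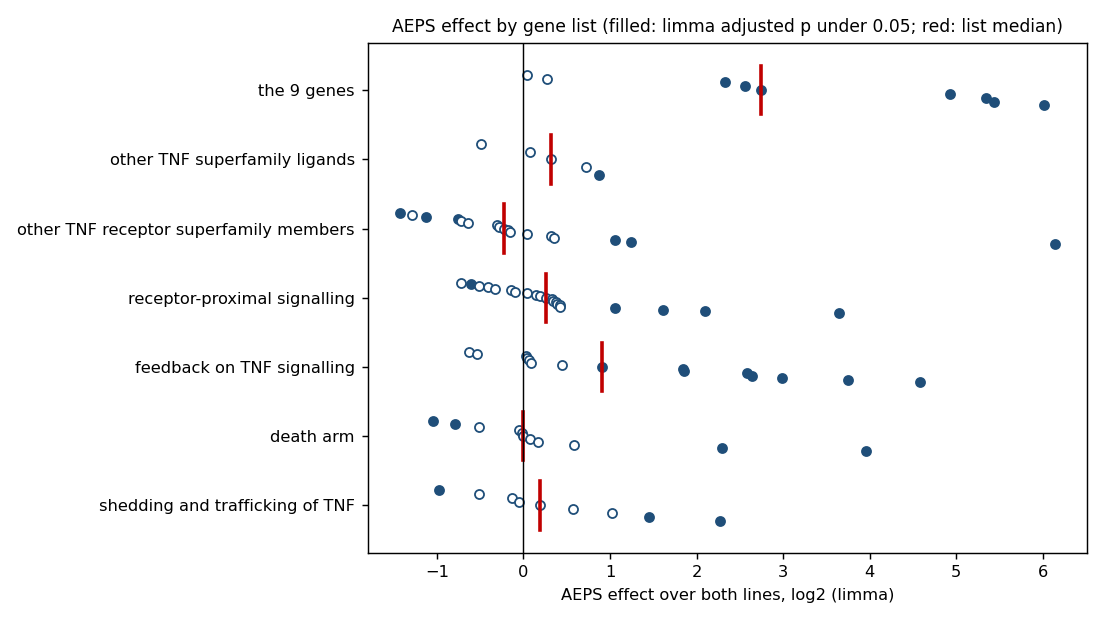
AEPS effect over both lines (x axis, log2) of each gene tested, by list (rows); filled points passed limma at an adjusted p under 0.05 and the red bar is the median. The 9 genes have a median of 2.74 and the feedback list one of 0.91; the other lists lie between -0.22 and 0.32.

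Around Tnf, within 50 kb on mm9 chromosome 17, the 3 cytokine genes stood above their neighbours in AEPS effect. The window was chosen after the values were seen. Ltb lies at -3.70 kb and Lta at 3.48 kb, by probe distance. Nfkbil1, at 20.3 kb, rose by 1.0 ± 0.14 (SE; limma adjusted p = 0.0286). Aif1 gave 0.73 (limma adjusted p = 0.0622), Lst1 0.65 (limma adjusted p = 0.0501) and Atp6v1g2 0.19, none called.

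**Figure D5:**
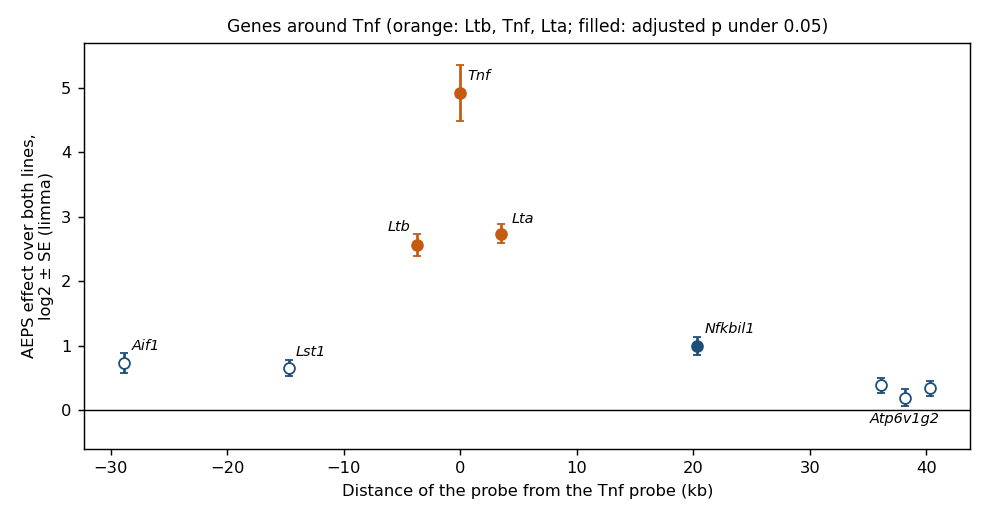
AEPS effect over both lines (y axis, log2 ± SE from limma) of genes tested within 50 kb of the Tnf probe, against probe distance in kb (x axis). Ltb, Tnf and Lta lie at 2.56, 4.92 and 2.74; Nfkbil1 at 1.0 is the other called gene, and 2 unnamed points are transcripts without a gene symbol.

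The genes whose 4-array profile was nearest to each of the 9 were found among 12305 candidates, as the root-mean-square distance of centred log2 levels over 4 arrays. For Tnf they were Lif (0.11) and Plet1 (0.15), for Lta Oas2 (0.06) and Clec4e (0.08), and for Ltb Clip4 (0.05) and Dhrs3 (0.06). For Tnfsf9 they were Rel (0.03) and Dusp16 (0.06). For Tnfrsf1b they were Ifih1 (0.33) and Cxcl10 (0.36). Their levels are also lower on both arrays labelled knockdown, which a choice by the same 4 levels favours. For Fas they were Mtmr7 (0.20) and Ccl4 (0.23), and for Tnfsf15 the nearest were farther off, Cd40 (0.45) and Ccl4 (0.61). For the brighter probes of Tnfrsf1a and Tnfrsf9, with small spread over the arrays, the nearest were Golga3 (0.02) and Greb1 (0.03), and Il15ra (0.01) and Dnmbp (0.02).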

How the data were processed

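Labelled cRNA was hybridised to Agilent mouse arrays in 1 colour (Cy3) on 1 slide, per the file headers. The intensity values were made by the authors with Agilent Feature Extraction 10.7.1.1, which subtracts background, per the file headers. The log2 values of the deposited series value table have like distributions over its columns (median 4.70). How the table was made is not given in the sources here, and it served as an alternative.

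From the scanner files, control and outlier spots were left out, log2 of the processed signal was taken minus each array's 75th percentile, and spots of a probe were averaged. For a gene with several probes the one with the highest mean signal was used. Genes whose chosen probe was well above background on at least 2 arrays entered limma 3.58.1 in R 4.3.3 (additive model of line and medium, Benjamini-Hochberg over 22338 genes, threshold 0.05). Comparisons of 1 array with 1 carry no test and were called at 2-fold, and a difference in response at 1 log2 unit. The fit was tested on simulated data. Probe names were updated through RefSeq for 26582 probes by accession.

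The number of arrays limits the precision. The 9 genes and the 6 lists were chosen with earlier results of these data known. Named from each list were up to 4 genes with the largest AEPS effect past limma and up to 2 with the largest line difference under AEPS, of at least 2-fold with both arrays well above background; other genes named were chosen after their values were seen. Tnfsf13 and Faim3 matched no gene name. Some genes of the lists are counted but not reported here by name. Exon positions of the probes were not used here. Alternatives were normexp correction (offset 50), quantile and median scaling, probe averaging, the value table, other filters, an intensity trend and, added after seeing the data, leaving out repeat-holding probes.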

Additional observations from a re-analysis of the deposited data

Results flagged for a closer look

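For 5 of the 9 genes the line difference had opposite signs in DMEM and under AEPS, with 1 array against 1 and the difference not tested. Under AEPS minus in DMEM, the change of that difference was -1.66 log2 for Tnf (0.82 in DMEM, -0.84 under AEPS) and -3.03 for Tnfsf15 (0.67 and -2.37). It was -0.53 for Ltb (0.43 and -0.09), -0.48 for the brighter Tnfrsf9 probe (0.10 and -0.38) and -0.68 for Fas (0.10 and -0.58). For Tnfrsf1a the AEPS difference had opposite signs, 0.17 for the scramble label and -0.09 for the knockdown label, a gap of -0.26 that was not tested either.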

How the results depend on the processing

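The AEPS effect of the 5 ligands, Tnfrsf1b and Fas stayed upward under all alternatives run, and their calls held except with no filter on dim genes, where 3 of the 9 genes passed and Tnf (limma adjusted p = 0.0582), Ltb (0.0529), Tnfsf9 (0.0541) and Tnfsf15 (0.0862) missed the threshold; 271 of all genes were then higher and 32 lower, with 36082 tested. The fit with an intensity trend called 3621 genes higher and 3073 lower, normexp 2524 and 2576, against 1653 and 1629. Median scaling moved the median of all genes by -0.10 (-0.15 on the arrays labelled scramble) and called 1996 higher and 3230 lower, 38.2% higher against 50.4%. With normexp the AEPS effect of Lta was 1.88 and that of Tnfsf15 3.99. The line effect of Tnfrsf1b was called, 1 gene lower, under normexp (-1.57), median scaling (-2.00), the filter on all 4 arrays and the intensity trend (both -1.96); over all genes these gave 419 higher and 322 lower, 502 and 653, 191 and 154, and 580 and 707, against 89 and 76, and no filter gave 0 and 0. Under the labels of the value table the calls turned: in DMEM 1 gene was higher and 0 lower (Tnfrsf1b 2.29), under AEPS 2 higher and 0 lower (Tnfsf15 2.33, Tnfrsf1b 1.57), and in response 2 higher and 0 lower (Tnf 1.76, Tnfsf15 2.92). Leaving out repeat-holding probes, chosen after seeing the data, put the dimmer Tnfrsf9 probe in place of the brighter one. In the line comparison under AEPS this made 1 gene higher on the array labelled knockdown (Tnfrsf9 1.22). For the AEPS effect over both lines, 8 of the 9 genes were then called higher, as with probe averaging. The added gene was Tnfrsf9 in each case, through a probe well above background on its AEPS arrays alone. The cause of these shifts in calls was not tested. No paired analysis was possible because each group has 1 array and the groups share a single replicate number, so numbers cannot pair samples (the limma fit already has the line as a block); for the same reason no replicate could be left out.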
